A study of Sus scrofa with 12 samples.

Results

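Matrix proteases and their TIMP inhibitors are the genes of the deposited table named MMP, ADAM, ADAMTS, ADAMTSL or TIMP followed by a number. There were 56 of them among 23271 listed genes, namely 15 MMP, 14 ADAM, 19 ADAMTS, 5 ADAMTSL and 3 TIMP genes. The tissue was longissimus dorsi, the long back muscle, of Laiwu pigs, a Chinese breed known for fatty muscle, and of Yorkshire pigs, a lean Western breed, matched in body weight. Each breed gave 6 libraries of polyadenylated RNA, the groups differ by breed alone in the labels, and age, sex and treatment are not given there. The comparison asks how transcript levels in muscle differ between these breeds.

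Matrix metalloproteinases (MMPs) are zinc enzymes that cut collagens and other matrix proteins, some secreted and some anchored in the cell membrane. ADAMs are membrane proteins, many of which release growth factors and receptors from the cell surface. ADAMTS enzymes are secreted proteases of proteoglycans, procollagens and fibrillin microfibrils, and ADAMTSL proteins resemble them but have no protease domain. TIMPs are small secreted proteins that block these enzymes, and in skeletal muscle the set takes part in matrix turnover, repair and growth of vessels.

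No member passed the test between breeds, and several varied widely among libraries of 1 breed. The quasi-likelihood test of edgeR, adjusted by Benjamini-Hochberg over 11205 genes, called 0 of the 27 members that reached the minimum for testing, a mean of 0.5 FPKM over the 12 libraries, beside 0% of all tested genes. FPKM is a count scaled by gene length and by the size of the library. DESeq2 also called 0 members, beside 0.00892% of the tested genes. At an unadjusted p under 0.05, edgeR had 4 of the 27 members, against 4.44% of all tested genes, and DESeq2 had 5, against 5.08%. ADAMTS12, TIMP3 and ADAMTS2 were higher in Laiwu, as were 2.14% of all tested genes at that p, and ADAMTS8 was lower, as were 2.3%, each with an edgeR adjusted p of 0.912. The 29 members under the minimum were not in the main fit. With no filter on low values, 2 of them, ADAM28 and MMP12, had an unadjusted edgeR p under 0.05, against 7.37% of all 23271 genes. Their edgeR adjusted p there was 0.499. In 27 of 27 tested members the libraries of the breeds overlapped, and 0.178% of all tested genes had no overlap. A fold change below is given as log2, Laiwu minus Yorkshire, with its standard error, and its 95% interval shows which sizes of difference the libraries allow.

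Each library held 54961358 to 67285809 counts, and the members together made up 417.3 to 654.6 CPM, the count scaled by library size alone. Summed FPKM of 8 skeletal muscle fibre markers ran from 63256.9 to 80403.9 in Laiwu and from 64269.2 to 83822.5 in Yorkshire, so the labelled tissue was present throughout (TTN was not analysed here). Yorkshire 3 held the highest value of 9 of the 27 tested members and of 22.3% of all tested genes. Yorkshire 5 held the lowest value of 5 members and of 27.4% of all tested genes, and its deviations from the mean level had a Spearman's rho of -0.43 with gene length (a description over genes, which are not replicates). In bulk muscle, fewer cells of a type and less RNA per cell cannot be told apart, and this touches every level given here.

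**Figure D1:**
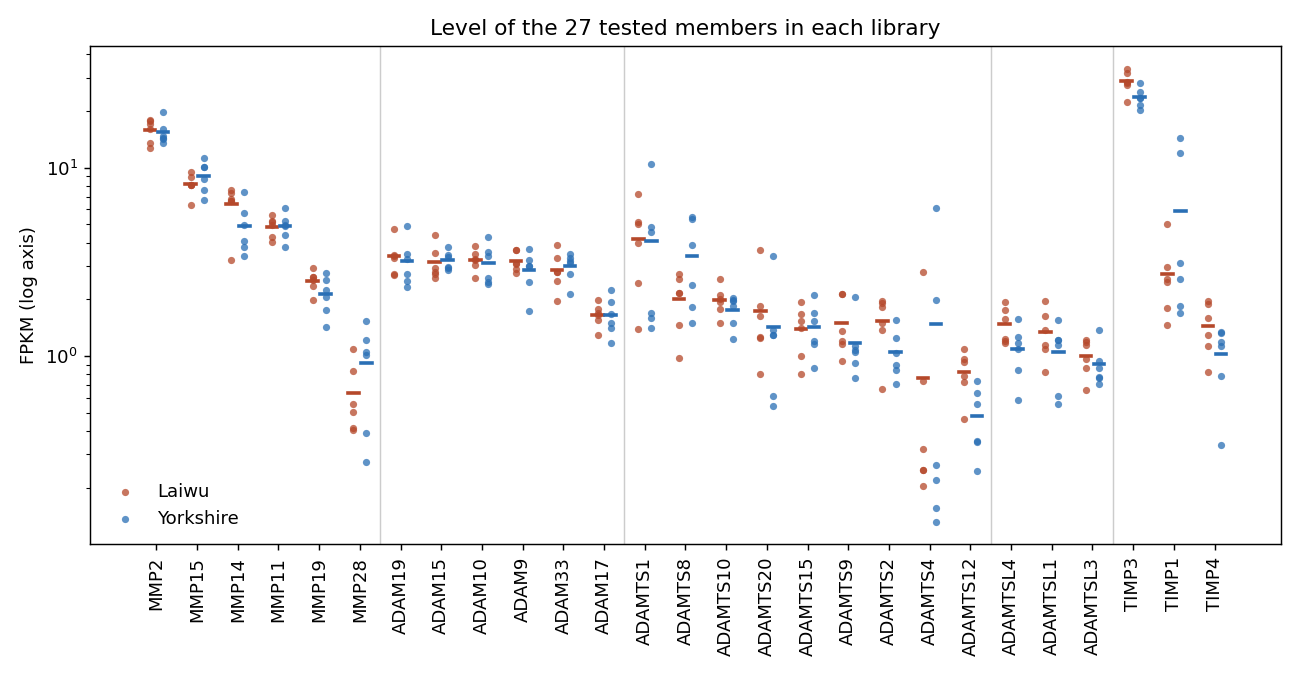
FPKM on a log axis of the 27 tested members, ordered within each class by mean level. Each point is 1 library, Laiwu in red and Yorkshire in blue, and each short bar is the mean of 6. TIMP3 and MMP2 stand highest, and the points of the breeds overlap in every member.

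Among the MMPs, the gelatinase gene MMP2 was the most abundant. MMP2 (ENSSSCG00000002829; Sscrofa11.1 chromosome 6, 30058595 to 30086982) ran from 12.8 to 17.9 FPKM in Laiwu around a median of 16.6 FPKM. In Yorkshire it ran from 13.4 to 19.8 FPKM around a median of 14.6 FPKM. Both breeds covered nearly the same range. Its log2 fold change was 0.020 ± 0.10 (SE), with a 95% interval of -0.20 to 0.24 and an edgeR adjusted p of 0.984.

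MMP14 encodes the membrane protease that activates MMP2 at the cell surface. MMP14 (ENSSSCG00000002039; chromosome 7, 76172971 to 76185928) was at 3.22, 6.73 and 7.65 FPKM as lowest, median and highest value in Laiwu, and in Yorkshire at 3.41, 4.53 and 7.45 FPKM. In Laiwu, 5 of the 6 libraries lay at 6.61 FPKM or more and Laiwu 2 lay far below them, while in Yorkshire only Yorkshire 3 stood that high. MMP14 had a log2 fold change of 0.36 ± 0.21, with an interval of -0.09 to 0.81 and an edgeR adjusted p of 0.912.

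MMP15, a related membrane protease (chromosome 6, 19891107 to 19912913), had means of 8.15 ± 1.06 (Laiwu) and 9.08 ± 1.69 FPKM (Yorkshire; SD, n = 6 each). It had a log2 fold change of -0.18 ± 0.15, which was -0.28 without Yorkshire 3 and -0.11 without Laiwu 3. Its lowest values in each breed, 6.36 and 6.77 FPKM, were in Laiwu 3 and Yorkshire 3, where MMP14 was highest. MMP11, a stromelysin of connective tissue cells, was at 4.87 ± 0.603 and 4.89 ± 0.795 FPKM (SD, n = 6 each). MMP19, a secreted protease, was at 2.51 ± 0.323 and 2.13 ± 0.493 FPKM (SD, n = 6 each). MMP28, a secreted protease also called epilysin, was near the minimum at 0.634 ± 0.274 and 0.912 ± 0.487 FPKM. The fitted log2 difference for MMP28, -0.53 ± 0.38, was -0.32 without Yorkshire 1. Of the 6 tested MMPs, 3 had a fold change above 0 and 3 below.

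The other 9 MMPs averaged 0.00743 to 0.223 FPKM and were not tested. Of these, 7 had at least 1 library with a count of 0, which allows up to 3 counts, or 0.0446 to 0.0546 CPM. MMP7, MMP27, MMP8, MMP12 and MMP13 lie near each other on chromosome 9 between 33214594 and 33561162. They belong to the family branch of matrilysin, stromelysin and collagenases. MMP27, the highest of them, averaged 0.163 FPKM. MMP7 and MMP12 had counts in Laiwu 3 only, 8 and 12 of them. MMP9 was not analysed here.

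TIMP3 was the most abundant member and the inhibitor with the narrowest interval. TIMP3 encodes an inhibitor held in the matrix that blocks ADAMTS enzymes and ADAM17 as well as MMPs (ENSSSCG00000031866; chromosome 5, 12185818 to 12242581). It was at 22.3, 28.5 and 33.6 FPKM as lowest, median and highest value in Laiwu, and in Yorkshire at 20.1, 23.4 and 28.3 FPKM. In Laiwu, 4 of the 6 libraries exceeded the highest Yorkshire value, Laiwu 5 only narrowly, and Laiwu 2 lay below the Yorkshire median. TIMP3 had a log2 fold change of 0.26 ± 0.10, with an interval of 0.04 to 0.48, an unadjusted p of 0.0213 and an edgeR adjusted p of 0.912. TIMP3 held on average 23.6% of the members' summed FPKM over the 12 libraries, and MMP2 held 14.1%.

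TIMP1 encodes an inhibitor that many cells release on injury or inflammation, and it varied far more between libraries. TIMP1 (ENSSSCG00000012277; chromosome X, 42102172 to 42106296) was at 1.47, 2.52 and 5.03 FPKM as lowest, median and highest value in Laiwu. In Yorkshire it was at 1.69, 2.84 and 14.3 FPKM. The Yorkshire values fell into 4 libraries from 1.69 to 3.13 FPKM, and Yorkshire 5 and Yorkshire 3 far above them at 12 and 14.3 FPKM. The medians of the breeds were close, and the means, 2.72 ± 1.26 and 5.92 ± 5.67 FPKM (SD, n = 6 each), were not. TIMP1 had a log2 fold change of -1.11 ± 0.55, with an interval of -2.31 to 0.079 and an edgeR adjusted p of 0.912. It was -0.72 without Yorkshire 3, -0.73 without Yorkshire 5 and -0.090 without both and Laiwu 5. TIMP1 is short, at an estimated 1074 bases. The Spearman's rho of a library's deviations with gene length was -0.43 in Yorkshire 5 and -0.03 in Yorkshire 3. The part of gene length in the TIMP1 values of these libraries was not tested.

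TIMP4, an inhibitor found in muscle and heart (chromosome 13, 68179806 to 68190942), had means of 1.45 ± 0.444 (Laiwu) and 1.02 ± 0.390 FPKM (Yorkshire; SD, n = 6 each). Its log2 fold change was 0.50 ± 0.28, or 0.32 without Yorkshire 2, where it stood at 0.335 FPKM. TIMP2 has no symbol in the table and is no member by name. Its row (ENSSSCG00000017164; chromosome 12, 3254493 to 3300834), known from the deposited description, ran from 14.1 to 21.9 FPKM in Laiwu and from 15.3 to 22.3 FPKM in Yorkshire, with a log2 fold change of 0.042 ± 0.11. Over the 12 libraries, TIMP3 averaged 53.5% of the FPKM of the 4 TIMP genes, TIMP2 35.8%, TIMP1 8.20% and TIMP4 2.48%. TIMP1 reached 23.3% at most.

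TIMP1 lies inside SYN1 and TIMP4 inside SYN2, synapsin genes of the opposite strand. The library kit marked strand, and whether reads were counted by strand was not stated. SYN1 ran from 2.58 to 5.52 FPKM over the 12 libraries and was at 3.44 FPKM in Yorkshire 3 and 4.58 FPKM in Yorkshire 5, the libraries where TIMP1 was highest. SYN2 averaged 0.0130 FPKM. ADAM9 and ADAM17 overlap TM2D2 and IAH1 on the opposite strand, which averaged 5.55 and 4.63 FPKM. For ADAM9 the overlap is short, from 47601616 to 47601710 on chromosome 15. ADAM10 spans an unnamed gene of the opposite strand that averaged 2.20 FPKM. The levels of TIMP1 and of these ADAMs are less certain to that extent, which was not tested.

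Per library, the summed FPKM of the MMPs and that of the 3 named TIMPs were of like size. The MMP sum was 39.1 ± 4.53 in Laiwu and 38.1 ± 3.29 in Yorkshire, and the TIMP sum was 32.8 ± 4.49 and 30.6 ± 7.16 (SD, n = 6 each). The ratio of TIMP to MMP ran from 0.718 to 0.903 in Laiwu and from 0.696 to 0.999 in Yorkshire, so the Yorkshire range enclosed the Laiwu range. This TIMP sum leaves out TIMP2, which held on average 35.8% of the FPKM of the 4 TIMP genes. Yorkshire 1 had the lowest ratio, from a TIMP sum of 26.5 and an MMP sum of 38.1, and its TIMP2 level was 16.3 FPKM. With TIMP2 added, the TIMP sum would exceed the MMP sum even there. Which sum is larger therefore depends on leaving TIMP2 out. The ratio of TIMP3 to MMP2, chosen without being planned, ran from 1.56 to 2.12 in Laiwu and from 1.25 to 1.78 in Yorkshire. These sums are descriptions over chosen genes and were not tested.

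**Figure D2:**
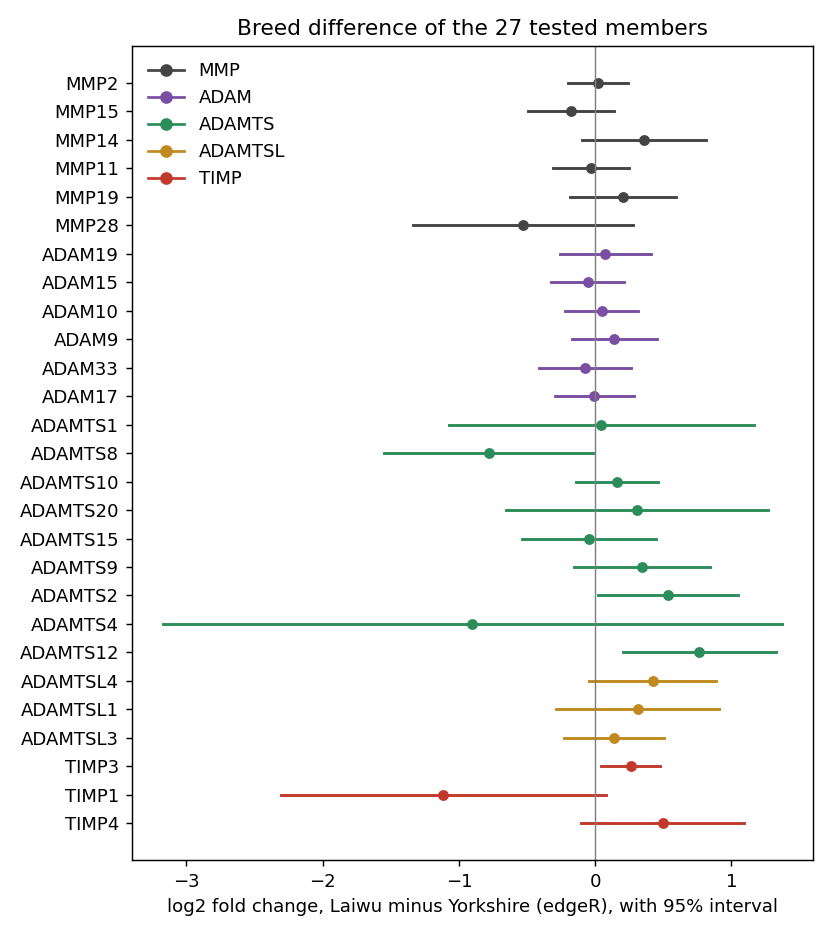
Fitted log2 fold change (Laiwu minus Yorkshire, edgeR) of the 27 tested members with its 95% interval, coloured by class. Intervals are narrow for the ADAMs and MMP2, and widest for ADAMTS4, from -3.17 to 1.37.

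The ADAMs, the membrane sheddases, had small fold changes between breeds. The 6 tested ADAMs had log2 fold changes from -0.075 to 0.14, with 3 above 0 and 3 below. ADAM10 releases Notch receptors and many other surface proteins (ENSSSCG00000004595; chromosome 1, 113289218 to 113412798). It was at 2.59, 3.26 and 3.86 FPKM as lowest, median and highest value in Laiwu, and in Yorkshire at 2.42, 3.01 and 4.30 FPKM. Its log2 fold change was 0.050 ± 0.12, with an interval of -0.22 to 0.32. ADAM17, the enzyme that frees tumour necrosis factor (chromosome 3, 126795426 to 126853988), was at 1.65 ± 0.233 and 1.65 ± 0.380 FPKM (SD, n = 6 each), with a log2 fold change of -0.0061 ± 0.13 and an interval of -0.29 to 0.28. As ratios of Laiwu to Yorkshire, these intervals run from 0.860 to 1.25 for ADAM10 and from 0.815 to 1.22 for ADAM17.

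ADAM9, ADAM15 and ADAM19, broadly expressed ADAMs, had log2 fold changes of 0.14 ± 0.15, -0.053 ± 0.12 and 0.075 ± 0.16. The value for ADAM9 was 0.041 without Yorkshire 5, in which it was at 1.73 FPKM against 2.48 FPKM or more in every other library. ADAM19 reached 4.75 FPKM in Laiwu 5, stood at 4.90 FPKM in Yorkshire 3, and lay between 2.34 and 3.48 FPKM in the other 10. ADAM33, an ADAM of mesenchymal cells, was at 2.87 ± 0.662 and 2.99 ± 0.490 FPKM (SD, n = 6 each).

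The remaining 8 ADAMs averaged 0.00140 to 0.422 FPKM and were not tested. They include ADAM12, which takes part in myoblast fusion and muscle repair. ADAM12 was at 0.128 and 0.134 FPKM in Yorkshire 1 and Yorkshire 4 and between 0.282 and 0.439 FPKM elsewhere. ADAM22 and ADAM23, which bind ligands but have no protease activity, averaged 0.422 and 0.198 FPKM. ADAM8, an ADAM of leukocytes, was highest in Yorkshire 3 at 0.763 FPKM. ADAM28, an ADAM of lymphocytes, had 0 counts in 9 libraries, all 6 of Laiwu among them, and 52 in Yorkshire 3, and ADAM20 had 3 counts in Laiwu 4 only.

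The ADAMTS enzymes held 3 of the 4 members with an unadjusted p under 0.05 and the member that varied most, ADAMTS4. ADAMTS12, which cleaves the cartilage protein COMP, had the smallest p of all members (ENSSSCG00000016816; chromosome 16, 19547011 to 19920513). It was at 0.463, 0.856 and 1.08 FPKM as lowest, median and highest value in Laiwu, and in Yorkshire at 0.246, 0.454 and 0.740 FPKM. In Laiwu, 4 of the 6 libraries lay above the highest Yorkshire value. ADAMTS12 had a log2 fold change of 0.77 ± 0.26, with an interval of 0.21 to 1.32, an unadjusted p of 0.0109 and an edgeR adjusted p of 0.912, and it ranked 73rd by p among the tested genes. Its level is near the minimum for testing, and on log2(FPKM + 1) the fold change by limma was 0.30, and on log2(FPKM + 0.1) it was 0.70.

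ADAMTS2 removes the amino-terminal propeptide of fibrillar procollagens (ENSSSCG00000024043; chromosome 2, 79182943 to 79406875). It was at 0.669, 1.66 and 1.96 FPKM as lowest, median and highest value in Laiwu, and in Yorkshire at 0.714, 0.966 and 1.56 FPKM. Laiwu 2 was the lowest library of all 12, and 3 Laiwu libraries lay above every Yorkshire library. ADAMTS2 had a log2 fold change of 0.53 ± 0.24, with an interval of 0.018 to 1.05 and an edgeR adjusted p of 0.912. Its unadjusted edgeR p of 0.0435 was 0.0994 without Laiwu 4 and 0.0025 without Laiwu 2. ADAMTS14 and ADAMTS3, the other procollagen propeptidases, averaged 0.159 and 0.0380 FPKM and were not tested.

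Among the Laiwu libraries, ADAMTS12, ADAMTS2 and MMP14 were high in Laiwu 3 and Laiwu 4 and low in Laiwu 2, as was the summed level of 9 markers of fibro-adipogenic progenitors, the stromal cells between fibres. All 9 markers were in the table with none at 0 throughout, and their sum ran from 191.2 to 337.5 FPKM in Laiwu and from 206.3 to 235.97 FPKM in Yorkshire. It was highest in Laiwu 4 and Laiwu 3 and lowest in Laiwu 2. In Yorkshire the 3 genes were highest in Yorkshire 3, where the marker sum, 217.05 FPKM, was below those of Yorkshire 2, Yorkshire 5 and Yorkshire 6. DCN and GSN, at means of 95.5 and 90.9 FPKM, make up most of that sum. Of the 9 markers, only PDGFRA had its highest value of all 12 libraries in Yorkshire 3, at 4.76 FPKM. The part of these cells in the protease levels was not tested. Adipocyte markers ran from 28.6 to 155.9 FPKM in Laiwu and from 20.1 to 57.5 FPKM in Yorkshire (5 of 5 in the table), and their part was not tested either.

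ADAMTS8, a proteoglycan cleaving enzyme that also restrains vessel growth, was the one member of those 4 that stood lower in Laiwu (ENSSSCG00000015249; chromosome 9, 57090617 to 57110414). It was at 0.976, 2.15 and 2.73 FPKM as lowest, median and highest value in Laiwu, and its Yorkshire values had a lowest of 1.5, a median of 3.13 and a highest of 5.48 FPKM. Yorkshire 1, Yorkshire 4 and Yorkshire 6, at 5.36, 3.87 and 5.48 FPKM, lay above every Laiwu library and the other 3 did not. ADAMTS8 had a log2 fold change of -0.78 ± 0.36, with an interval of -1.55 to -0.01 and an edgeR adjusted p of 0.912. The unadjusted edgeR p of ADAMTS8, 0.0474, was 0.126 without Yorkshire 6 and 0.0180 without Yorkshire 3. Its neighbour ADAMTS15, 17.0 kb away on the other strand, was at 1.39 ± 0.428 and 1.42 ± 0.443 FPKM (SD, n = 6 each) and was highest in Yorkshire 3, where ADAMTS8 was at 1.81 FPKM.

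ADAMTS1, ADAMTS4 and ADAMTS9 cleave versican and related proteoglycans, and ADAMTS1 and ADAMTS4 are known to respond to inflammatory signals. ADAMTS4 (ENSSSCG00000006359; chromosome 4, 89260461 to 89269244) was at 0.203, 0.285 and 2.81 FPKM as lowest, median and highest value in Laiwu, and in Yorkshire at 0.132, 0.242 and 6.13 FPKM. It stood at 6.13 FPKM in Yorkshire 3, 2.81 FPKM in Laiwu 5 and 1.99 FPKM in Yorkshire 5, and at 0.736 FPKM or less in the other 9. Its standard deviation within breeds was 164% of its mean, a variation exceeded by few genes, at percentile 99.9 of the tested genes. ADAMTS4 had a log2 fold change of -0.90 ± 1.04, which was 0.36 without Yorkshire 3 and -2.02 without Laiwu 5. Leaving out Yorkshire 3 turned its sign, and leaving out any other single library did not.

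ADAMTS1 (ENSSSCG00000012026; chromosome 13, 190276430 to 190286214) was at 1.38, 4.50 and 7.23 FPKM as lowest, median and highest value in Laiwu, and in Yorkshire at 1.41, 3.13 and 10.4 FPKM. It was at 2.44 FPKM or less in Laiwu 2, Laiwu 4, Yorkshire 1, Yorkshire 2 and Yorkshire 4, and highest in Yorkshire 3 and Laiwu 5. Its log2 fold change of 0.046 ± 0.51 was 0.49 without Yorkshire 3 and below 0 without any 1 of Laiwu 3, Laiwu 5, Laiwu 6, Yorkshire 1, Yorkshire 2 and Yorkshire 4, the lowest being -0.18 without Laiwu 5. ADAMTS5, another proteoglycan cleaving enzyme, lies 75.5 kb from ADAMTS1 on the same strand and averaged 0.241 FPKM, against 4.14 FPKM for ADAMTS1. ADAMTS9 was at 1.49 ± 0.517 and 1.17 ± 0.459 FPKM (SD, n = 6 each). Its fitted log2 difference, 0.35 ± 0.23, was 0.53 without Yorkshire 3, 0.22 without Laiwu 5 and 0.23 without Laiwu 6.

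ADAMTS20, an enzyme of the same branch as ADAMTS9, reached 3.64 FPKM in Laiwu 5, stood at 3.39 FPKM in Yorkshire 3, and was at 1.85 FPKM or less in the other 10. ADAMTS10, which binds fibrillin microfibrils, was at 1.98 ± 0.354 and 1.75 ± 0.322 FPKM (SD, n = 6 each). The 10 ADAMTS genes under the minimum averaged 0.0216 to 0.491 FPKM, and 6 of them had counts in every library. ADAMTS13, the enzyme that cuts von Willebrand factor, had 0 counts in 7 libraries. Of the 9 tested ADAMTS genes, 6 had a fold change above 0 and 3 below.

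**Figure D3:**
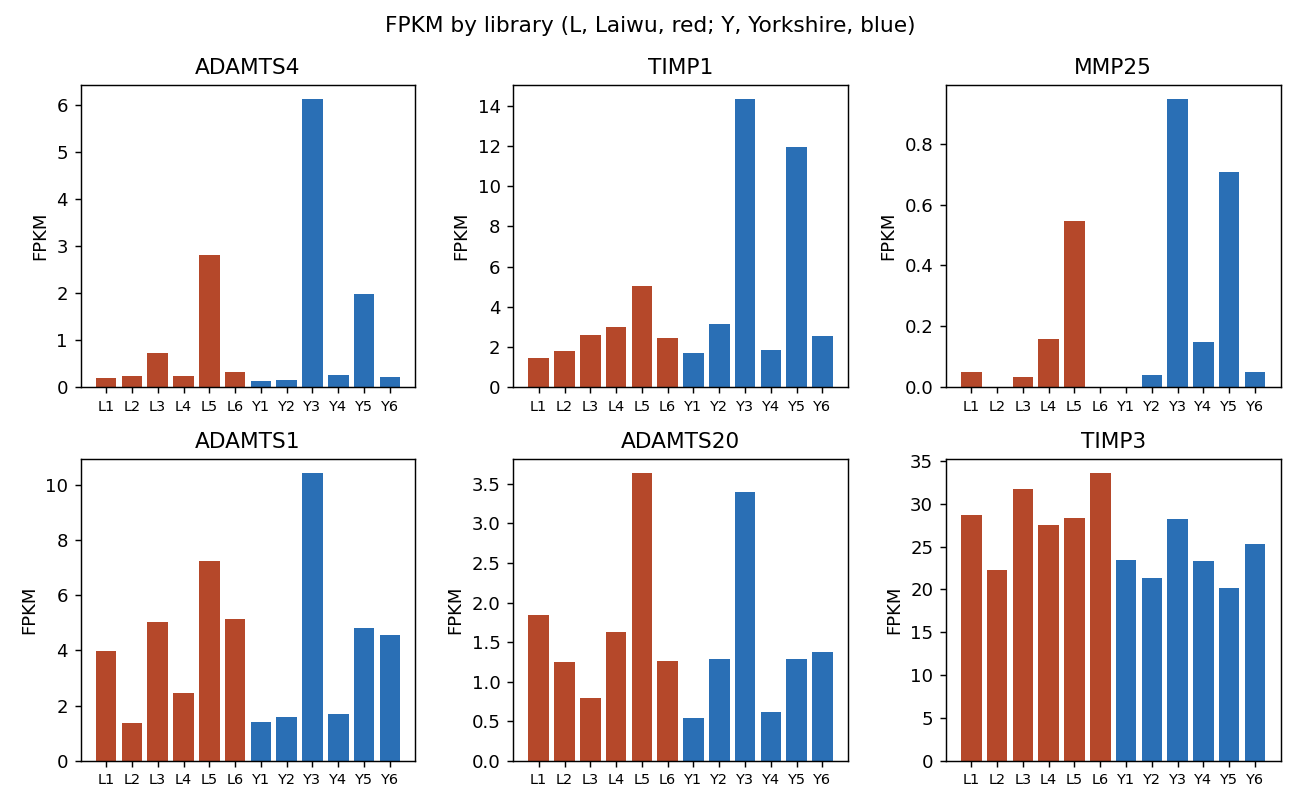
FPKM in each library of 6 members, Laiwu (L1 to L6) in red and Yorkshire (Y1 to Y6) in blue, with each axis starting at 0. ADAMTS4, TIMP1 and MMP25 are highest in Yorkshire 3, Yorkshire 5 and Laiwu 5, whereas TIMP3 ranges from 20.1 to 33.6 FPKM.

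The same 3 libraries, Yorkshire 3, Yorkshire 5 and Laiwu 5, held the 3 highest values of ADAMTS4, TIMP1 and MMP25, a membrane protease of leukocytes. MMP25 was at 0.946, 0.706 and 0.547 FPKM there and at 0.157 FPKM or less elsewhere. ADAMTS4 and TIMP1 are 7.41% of the 27 tested members, beside 6.98% of all tested genes with the same 3 libraries on top, so the members' share is near the background. Of 7 neutrophil markers CSF3R alone was matched by symbol, at 0.317, 0.223 and 0.169 FPKM in those libraries and at 0.0602 FPKM or less in the others. S100A9, another of the 7, was found by its deposited description, with 8 counts in Yorkshire 3, 4 in Yorkshire 2 and 0 in the other 10. The summed level of 9 macrophage markers, none at 0 throughout, ran from 13.8 to 42.5 FPKM in Laiwu and from 14.5 to 36.3 FPKM in Yorkshire, with Laiwu 4 and Yorkshire 3 highest and Laiwu 5 at 16.3 FPKM. The part of such cells in these levels was not tested. Without those 3 libraries, an alternative added after the data were seen, edgeR called 0 members, 5 of 27 had an unadjusted p under 0.05 against 2.81% of all tested genes, and the log2 fold change of ADAMTS4 was 0.80.

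**Figure D4:**
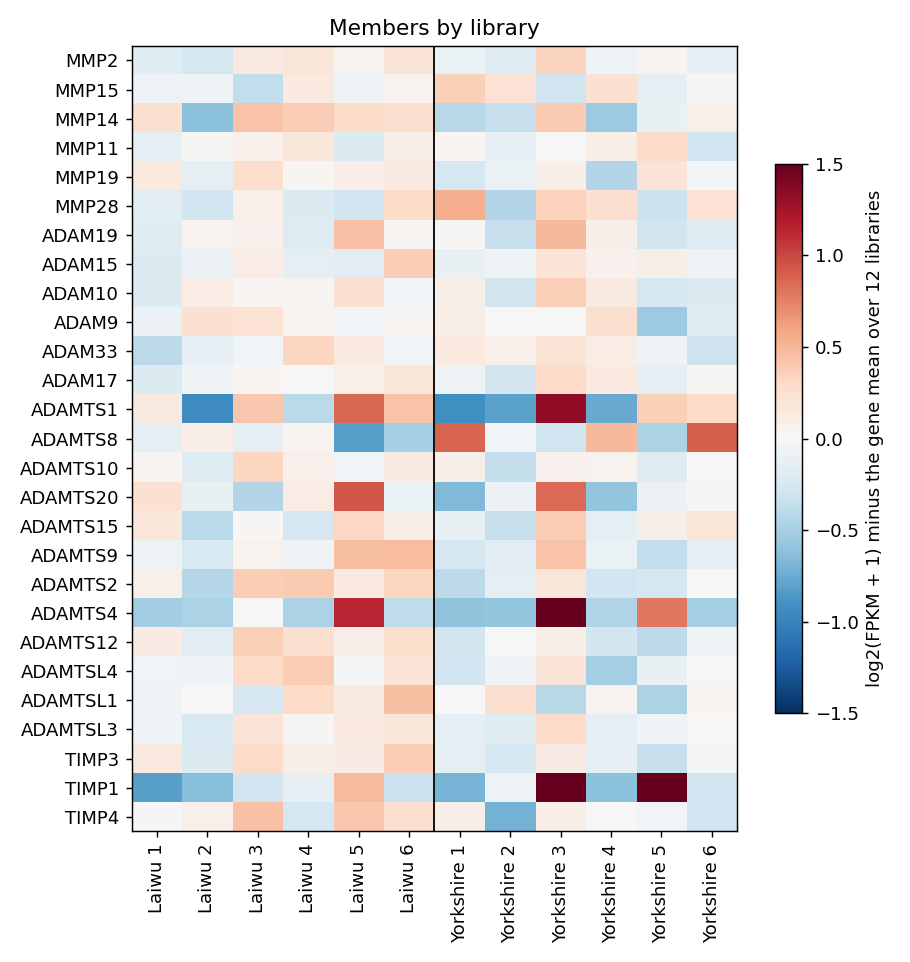
log2(FPKM + 1) of the 27 tested members minus the mean of each gene over 12 libraries, with Laiwu left and Yorkshire right of the line. Red is above and blue below the gene's mean, and the strongest colours are in ADAMTS1, ADAMTS4 and TIMP1, above all in Yorkshire 3.

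The 3 tested ADAMTSL genes, whose products bind fibrillin microfibrils and other matrix, all had fold changes above 0. ADAMTSL4 (ENSSSCG00000006651; chromosome 4, 98577823 to 98589180) was at 1.18, 1.40 and 1.93 FPKM as lowest, median and highest value in Laiwu, and in Yorkshire at 0.583, 1.13 and 1.58 FPKM. ADAMTSL4 had a log2 fold change of 0.42 ± 0.22, with an interval of -0.047 to 0.89 and an edgeR adjusted p of 0.912. ADAMTSL1 was at 1.34 ± 0.412 and 1.05 ± 0.384 FPKM (SD, n = 6 each), and ADAMTSL3 ran from 0.655 to 1.22 FPKM in Laiwu and from 0.709 to 1.37 FPKM in Yorkshire. ADAMTSL2 and ADAMTSL5 averaged 0.458 and 0.370 FPKM and were not tested.

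Over the 27 tested members, 17 had a fold change above 0 and 10 below, and 49.7% of all tested genes were above 0. The median log2 fold change was 0.075 for the tested members and -0.0013 for all tested genes. Without Yorkshire 3 the members' median was 0.18, with 20 above 0 and 7 below, and without Laiwu 5, Yorkshire 3 and Yorkshire 5 it was 0.11, with 22 and 5. With a gene length offset it was 0.031, with 15 and 12. In the fit to all 12 libraries, the members' standard error had a median of 0.21, against 0.16 over all tested genes. Without Yorkshire 3, 8 of the 27 had an unadjusted p under 0.05, against 4.77% of all tested genes, and 0 passed with adjustment by edgeR, whose lowest adjusted p among them was 0.889. The 8 were the 4 named above with ADAMTS9, ADAMTSL4, MMP15 and MMP14. Without Laiwu 6, 1 of the 27 had such a p, against 3.84% of all tested genes.

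Levels were compared across libraries for pairs of members, or of a member and TIMP2, on log2 CPM, here scaled also by edgeR's TMM factors. This was done for 8 of 10 planned pairs, since MMP9 was not analysed here and ADAM12 was under the minimum. The pairs were not all partners in one complex, since ADAMTS1 and ADAMTS4, ADAMTS2 and MMP2, and ADAM10 and ADAM17 are separate proteases. MMP14 binds TIMP2 and uses it as a receptor for the MMP2 proenzyme. MMP2 and TIMP2 had a Pearson's r of 0.82 (permutation p = 0.00153, adjusted over 8 pairs 0.00920) and a Spearman's rho of 0.79 (permutation p = 0.00313, adjusted 0.0144) over 12 libraries. Within breeds r was 0.77 in Laiwu (exact permutation p = 0.0778) and 0.91 in Yorkshire (exact permutation p = 0.0236), and it was 0.78 without Laiwu 2 and Laiwu 4, the libraries farthest from the MMP2 median on that scale. Of all tested genes, 0.259% had an r with MMP2 at least as high. Both levels were higher in the same libraries, and the points share library makeup, such as the amount of connective tissue, whose part was not tested.

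MMP14 and TIMP3 had an r of 0.78 (permutation p = 0.00346, adjusted 0.00923) and a rho of 0.78 (permutation p = 0.00418, adjusted 0.0144), with 0.85 in Laiwu and 0.59 in Yorkshire (exact permutation p = 0.132 and 0.247). It was 0.74 without Laiwu 2 and Yorkshire 4, and 1.12% of tested genes had an r with MMP14 at least as high. ADAMTS1 and ADAMTS4 had an r of 0.78 (permutation p = 0.00230, adjusted 0.00920) and a rho of 0.76 (permutation p = 0.00541, adjusted 0.0144), with 0.67 in Laiwu and 0.86 in Yorkshire (exact permutation p = 0.171 and 0.0111). It was 0.77 without Laiwu 2 and Yorkshire 1, and 0.58 without Laiwu 5, Yorkshire 3 and Yorkshire 5. The share of tested genes with an r to ADAMTS1 at least as high was 2.10%.

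The pairs MMP2 with MMP14, MMP14 with TIMP2, and ADAMTS2 with MMP2 had a permutation p above 0.05 without the 2 libraries farthest from the first gene's median, a step that also narrows the range. MMP2 and MMP14 had an r of 0.72 (permutation p = 0.00968, adjusted 0.0152) and a rho of 0.67 (permutation p = 0.0203, adjusted 0.0306), and r was 0.55 (permutation p = 0.107) without Laiwu 2 and Laiwu 4. MMP14 and TIMP2 had 0.74 (permutation p = 0.00753, adjusted 0.0151) and 0.66 (permutation p = 0.0229, adjusted 0.0306), and r was 0.46 (permutation p = 0.182) without Laiwu 2 and Yorkshire 4. ADAMTS2 and MMP2 had 0.71 (permutation p = 0.0114, adjusted 0.0152) and 0.72 (permutation p = 0.0113, adjusted 0.0227), and r was 0.49 (permutation p = 0.148) without Laiwu 2 and Yorkshire 1. Within breeds these r were 0.78, 0.79 and 0.91 in Laiwu (exact permutation p = 0.0667, 0.0542 and 0.00278) and 0.77, 0.73 and 0.56 in Yorkshire (exact permutation p = 0.0972, 0.107 and 0.25), in the same order. Without Laiwu 5, Yorkshire 3 and Yorkshire 5 they were 0.75, 0.75 and 0.86. As high an r with the first gene was held by 1.36%, 2.03% and 2.09% of tested genes.

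The ADAM pairs did not pass with adjustment. ADAM10 and ADAM17 had an r of 0.59 (permutation p = 0.0484, adjusted 0.0554) and a rho of 0.59 (permutation p = 0.0453, adjusted 0.0518), and ADAM17 and its inhibitor TIMP3 had 0.27 (permutation p = 0.392, adjusted 0.392) and 0.24 (permutation p = 0.457, adjusted 0.457). Without the 2 libraries farthest from the x gene's median, r was 0.40 and 0.44, and 5.87% and 19.4% of tested genes had as high an r with the first gene over all 12.

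**Figure D5:**
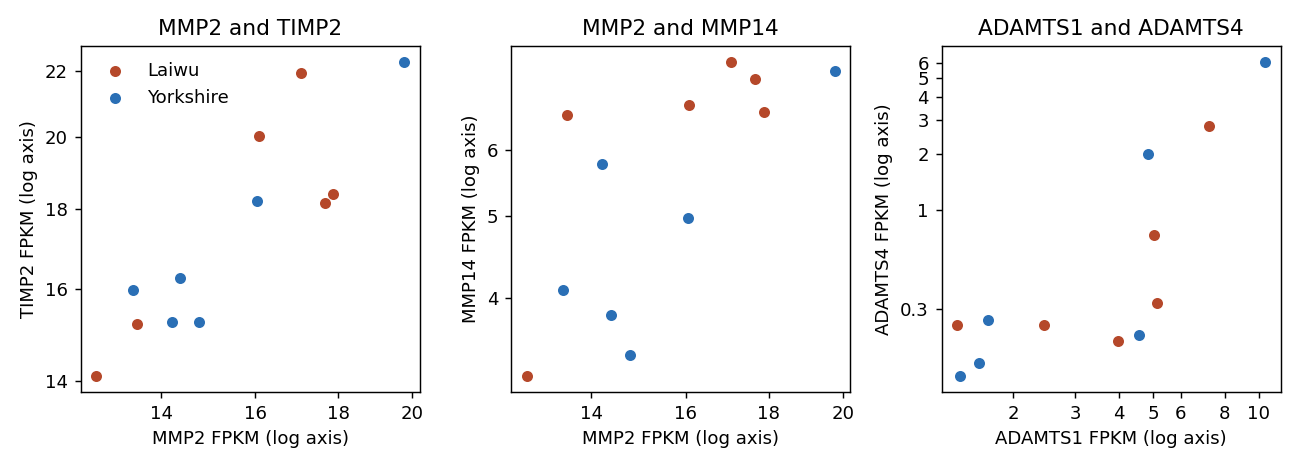
FPKM of 3 pairs of genes in each library on log axes, Laiwu in red and Yorkshire in blue (n = 12). TIMP2 is higher where MMP2 is higher, MMP14 follows MMP2 less closely, and ADAMTS4 is above 1 FPKM in 3 libraries.

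Other genes of the pathway were taken from 6 lists, and 0 of their tested members passed edgeR's adjusted test. Activators of proteases and the plasminogen system had 2 of 6 tested genes above 0 and a median log2 fold change of -0.11. FURIN, the convertase that trims the propeptides of MMP14 and the ADAMs, had means of 6.31 ± 1.09 (Laiwu) and 6.98 ± 1.52 FPKM (Yorkshire; SD, n = 6 each). PLAU, the urokinase that starts plasmin formation, averaged 3.17 (Laiwu) and 4.46 FPKM (Yorkshire) and reached 12.3 FPKM in Yorkshire 3.

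Other inhibitors and clearance had 3 of 7 above 0 and a median of -0.13. RECK, a membrane anchored inhibitor of MMPs, had a log2 fold change of 0.35 ± 0.16 (unadjusted p = 0.0482). CST3, the cysteine protease inhibitor cystatin C, and SERPINF1 were the highest of that list, at a mean of 63.96 and 58.3 FPKM. Regulators of ADAM10 and ADAM17 had 2 of 8 above 0 and a median of -0.074. RHBDF1, an iRhom that carries ADAM17 to the cell surface, was at 10.2 ± 1.38 and 10.3 ± 1.09 FPKM (SD, n = 6 each). TSPAN17, a tetraspanin partner of ADAM10, was at 6.21 ± 0.447 and 7.26 ± 1.16 FPKM (SD, n = 6 each), with a fitted log2 difference of -0.24 ± 0.11 (unadjusted p = 0.0484).

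Substrates of the ADAM sheddases had 6 of 11 above 0 and a median of 0.028, with APP and HBEGF highest at a mean of 19.8 and 9.19 FPKM. Procollagen and lysyl processing had 3 of 6 above 0 and a median of 0.13. LOX, the lysyl oxidase that cross-links collagen, had a log2 fold change of 0.79 ± 0.36 (unadjusted p = 0.0476), and PCOLCE, the enhancer of procollagen C-proteinase, was at 20.2 ± 5.63 and 20.3 ± 6.48 FPKM (SD, n = 6 each). BMP1, that proteinase, was at 3.56 ± 0.776 and 3.83 ± 1.73 FPKM (SD, n = 6 each).

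Substrates and partners of the ADAMTS enzymes had 8 of 10 above 0 and a median of 0.39. FBN1, the fibrillin of microfibrils, had means of 6.77 ± 2.48 (Laiwu) and 4.06 ± 1.14 FPKM (Yorkshire; SD, n = 6 each), with a fitted log2 difference of 0.72 ± 0.25 (unadjusted p = 0.0123). LTBP1, which holds latent TGF-beta in the matrix, had a log2 fold change of 0.38 ± 0.17 (unadjusted p = 0.0447). COL3A1 and COL1A1, fibrillar collagens whose propeptides ADAMTS2 removes, were the highest of the list at a mean of 176.3 and 53.5 FPKM. All of these pathway genes had an edgeR adjusted p of at least 0.912.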

How the data were processed

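Polyadenylated RNA of 6 Laiwu and 6 Yorkshire muscle libraries was sequenced on an Illumina instrument, and the series' design text states alignment with HISAT2 to Sscrofa11.1, and the submitters' processing notes list, with no roles, HISAT2 2.2.1, edgeR, DESeq2, StringTie 1.3.4d and cutadapt 1.9. The authors deposited a raw count and an FPKM value per gene and library, per the file headers. No source used here gives the annotation release or the counting settings. Nothing in the labels ties a library to its own animal, and p-values then reflect only how these samples vary, which may be technical.

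Genes that averaged 0.5 FPKM or more were tested with edgeR 4.0.16 on counts (TMM, quasi-likelihood, robust, two-sided, adjusted p under 0.05), and the standard error was taken from the fold change and F. On simulated counts of 11205 genes with 200 changed, this recovered 11% of 1.5-fold, 72% of 2-fold and 95.5% of 4-fold changes, with 1, 6 and 12 false calls. The simulated counts varied independently between genes, without library-wide patterns such as those of Yorkshire 3 and Yorkshire 5. The changed genes came from all tested genes, whose median standard error was 0.16, against 0.21 for the members. Recovery among the members may therefore be lower. Alternatives used limma 3.58.1 and DESeq2 1.42.0 in R 4.3.3, other scalings and filters, a replicate block, a gene length offset and leaving out each library. Correlations used 100000 resamples over 12 libraries.

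The members and lists were chosen with earlier results of these data known. Fold changes are given for tested members with an unadjusted p under 0.05, an absolute log2 fold change of at least 0.5 or a place in a fixed panel, and levels for the others. From each pathway list, genes with an unadjusted p under 0.05 and the 2 of highest level are named. MMP25, CSF3R and the untested members given by name were picked after their values were seen. Protein features of the members were not analysed here. Python 3.11.15 and matplotlib 3.10.9 drew the figures.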

Additional observations from a re-analysis of the deposited data

Results flagged for a closer look

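Within each breed, the highest or lowest of 6 libraries stood far from the rest in 9 of 68 groups looked at. Among normally distributed values about 1 in 20, or 3.4, would do so. FPKM values need not be so distributed, and the groups share the same 12 libraries and include sums of members. No excess over chance is therefore read from this count. Yorkshire 3 was the highest library for ADAMTS4 at 6.13 FPKM (next 1.99 FPKM), ADAMTS20 at 3.39 FPKM (next 1.38 FPKM), ADAMTS9 at 2.07 FPKM (next 1.13 FPKM) and ADAMTSL3 at 1.37 FPKM (next 0.935 FPKM). Laiwu 5 was the highest for ADAMTS4 at 2.81 FPKM (next 0.736 FPKM), ADAMTS20 at 3.64 FPKM (next 1.85 FPKM) and ADAM19 at 4.75 FPKM (next 3.43 FPKM). MMP14 was low in Laiwu 2, at 3.22 FPKM against 6.61 FPKM for the next Laiwu library. The summed FPKM of the ADAM genes was low in Laiwu 1, at 15.2 against 18.7 for the next.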

How the results depend on the processing

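edgeR and limma called 0 genes between breeds under each alternative run, and DESeq2 called 1 gene, CILP, which is no member, while 0 members were called under any. The number of tested members at an unadjusted p under 0.05 ran from 1 to 8, and that of all genes from 284 to 1715, the highest with no filter on low values. Of 19 members given a fold change, 12 kept their sign in all 22 alternatives. With a gene length offset the sign changed for ADAM10 (-0.032), ADAM19 (-0.017) and ADAMTS1 (-0.012). ADAM17 was 0.0011 by library size only, 0.010 and 0.021 by limma with pseudocounts of 1 and 0.1, and 0.0033 with the replicate block. With 1 library left out, ADAM10 ran from -0.0027 to 0.12, ADAM17 from -0.072 to 0.054, ADAM19 from -0.043 to 0.19, ADAMTS1 from -0.18 to 0.49, ADAMTS4 from -2.02 to 0.36 and MMP2 from -0.023 to 0.070. ADAM15 ran from -0.16 to -0.012. Without Laiwu 5, Yorkshire 3 and Yorkshire 5 together, an alternative chosen after seeing the data, ADAM15 was 0.049, ADAM17 0.017, ADAMTS4 0.80, ADAMTS1 0.56 and MMP2 0.11. The cause of these changes was not tested. TIMP1 was -0.70 with the replicate block and -0.57 by limma with a pseudocount of 1. Same-numbered libraries of the breeds are not paired by the labels, their deviations correlated from -0.27 to 0.33, and the replicate block gave 0 called genes and 3 members at an unadjusted p under 0.05 (3.86% of all tested genes). The mean class sums of each breed moved by less than 1 SD with any library left out. A mean cannot move by 1 SD of its own values when 1 of them is left out. That limit therefore says nothing about how stable the sums are. The Yorkshire mean of the ADAMTS sum, 18.1 FPKM, was 15.3 FPKM without Yorkshire 3 and 19.3 FPKM without Yorkshire 2. Counts under the minimum for testing limit what can be said of 29 members.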
